A study of Mus musculus with 242 samples.

Results

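Livers of mice dosed by mouth with corn oil alone were compared with livers of mice kept in inhalation chambers with air alone. The comparison used the control arrays of a single array run, identified by its run code in the labels, which held 2 sets of corn oil controls (titled CCO5 and CCO6, 10 mice) and 3 sets of air controls (ACO3, ACO4 and ACO5, 15 mice). These 25 arrays were taken from 242 in all, and each set held 5 mice. A gene was counted only if its set means differed in the same direction in all 6 pairs of a corn oil set and an air set.

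The series measured liver RNA of female mice after exposure to chemicals or to their vehicles, and its stated purpose was to find liver transcripts that foretell liver tumours in rodent cancer studies. Every array carried RNA of 1 adult female B6C3F1 mouse, a hybrid of C57BL/6 and C3H, with the right, caudate and median lobes minced together. All mice compared were 18 weeks old at killing, after 13 weeks of treatment on 5 days a week. The corn oil mice received 5 ml/kg of oil once a day by gavage (through a tube into the stomach), and the air mice breathed chamber air for 6 hours a day. No control mouse received a chemical. Oil, gavage and animal room on one side and chamber air and chamber housing on the other cannot be told apart in this design. The labels used here do not give time of day or time since the last meal.

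Liver changes its transcripts with food supply. When fat is the main fuel, fatty acids and their derivatives activate the receptor PPARalpha, which switches on genes of fatty acid oxidation and the hormone gene Fgf21, while the kinase Pdk4 restrains the entry of pyruvate into the mitochondrion. When cells are short of sterol, the factor SREBP2 is released from the endoplasmic reticulum and switches on the genes of cholesterol synthesis, from Hmgcs1 to the late sterol enzymes. Mouse liver also expresses many sulfotransferase and cytochrome P450 genes at different levels in females and males, driven by the sex-specific rhythm of growth hormone.

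Values were probe set signals on a linear intensity scale, and all 25 arrays had a trimmed mean signal of 500. The median signal was 95.6 to 115 on the corn oil arrays and 86.5 to 112 on the air arrays. RNA integrity numbers were 7.6 to 7.9 in CCO5, 8.6 to 8.8 in CCO6 and 8.5 to 9.1 in the air sets (2 not given), so that CCO5 stood apart from the rest. The 3' to 5' signal ratio of Gapdh, a measure of RNA degradation, was 0.691 to 1.044 with corn oil and 0.712 to 0.779 with air. Albumin (Alb), the defining hepatocyte transcript, had signals of 33529 to 107800 with corn oil and 35958 to 89685 with air, as fits the labelled tissue. The number of arrays limits the precision, and p-values measure the spread between these mice.

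Of 18193 genes tested, 74 (0.407%) differed between the vehicles at a limma adjusted p under 0.05, a fold of at least 1.5 and the same direction in all 6 pairs of sets. Of these, 60 (0.330% of the genes tested) were higher with corn oil and 14 (0.0770%) were lower. The genes that rose most were Sult2a2, Cyp3a16, Fgf21, Pdk4, Ighm and Sqle, and those that fell most were Mmd2, Orm2, Cyp2d9, Slc13a2, Ggt6 and Ptgds. Every corn oil array lay outside the range of the air arrays for 7 of the 74, which were Sult2a2, Fgf21, Pdk4, Slc25a30 and Mtmr11 among the rises and Ggt6 and Ptgds among the falls. Over all genes this held for 0.0495%.

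The direction demand alone was weak, since 26.8% of all genes had the same direction in all 6 pairs (16.8% higher and 9.95% lower with corn oil), and it removed no gene that passed the other thresholds. The median difference over all genes was 0.04 on the log2 scale. With the 5 set means taken as the only samples no gene passed in limma, and 1794 of 18193 genes had an unadjusted p under 0.05. All 74 were among these, but they had been chosen from the same arrays, so this is no separate support. An exact permutation over 5 sets cannot give a p below 0.1. Without CCO5, the set of low RNA integrity, 237 genes were called and 55 of the 74 were among them. With the RNA integrity number as a covariate 65 genes were called, of which 36 were among the 74. Leaving out any 1 array kept the call of 40 of the 74, and leaving out any 1 set or array kept that of 23.

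**Figure D1:**
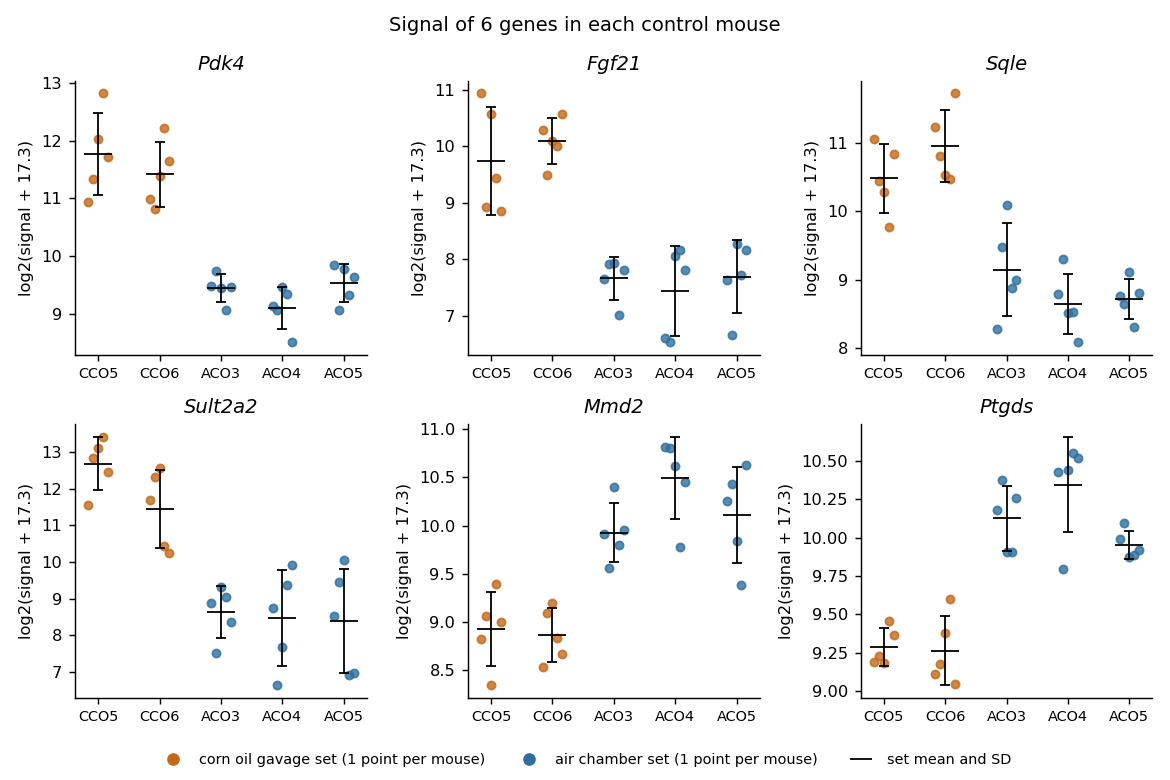
Level of 6 genes in each of the 25 control mice as log2 of the signal plus 17.3, by control set. Orange points are corn oil gavage mice, blue points air chamber mice, and the black bars give the set mean and SD (5 mice each). Both corn oil sets lie above all 3 air sets for Pdk4, Fgf21, Sqle and Sult2a2 and below them for Mmd2 and Ptgds.

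Genes of cholesterol synthesis were higher with corn oil. Of 20 measured members of a list of 24, 6 rose (Sqle, Hmgcs1, Msmo1, Cyp51, Lss and Mvd) and none fell, and the median difference over the list was 0.59 (log2) against 0.04 over all genes. The group means of 19 of the 20 were higher with corn oil, whether or not they passed, as were those of 10572 of all 18193 genes. The promoters of 3 of the 5 called members with a RefSeq entry (all but Lss and Mvd) are shown first, because sterol-responsive promoters are known to pair binding sites for SREBP2 with CCAAT boxes bound by the factor NF-Y. The following are the 250 bases before the start of Hmgcs1 (mouse build GRCm38.p6, chr13:119690101-119690350, plus strand), Cyp51 (chr5:4104698-4104947, minus strand) and Msmo1 (chr8:64733579-64733828, minus strand), as RefSeq places them. Capitals mark CCAAT on either strand (read as ATTGG on the other) and, in Hmgcs1, the sterol element TCACNCCAC.
Hmgcs1: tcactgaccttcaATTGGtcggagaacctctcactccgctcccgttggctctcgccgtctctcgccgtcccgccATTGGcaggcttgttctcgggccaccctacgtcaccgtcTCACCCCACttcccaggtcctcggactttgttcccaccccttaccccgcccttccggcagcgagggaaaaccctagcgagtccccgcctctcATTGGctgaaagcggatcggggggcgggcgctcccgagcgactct
Cyp51: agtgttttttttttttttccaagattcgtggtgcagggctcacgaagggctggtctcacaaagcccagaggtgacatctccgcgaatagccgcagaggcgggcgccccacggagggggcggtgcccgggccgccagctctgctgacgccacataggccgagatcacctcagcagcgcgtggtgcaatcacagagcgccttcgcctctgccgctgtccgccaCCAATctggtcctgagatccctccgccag
Msmo1: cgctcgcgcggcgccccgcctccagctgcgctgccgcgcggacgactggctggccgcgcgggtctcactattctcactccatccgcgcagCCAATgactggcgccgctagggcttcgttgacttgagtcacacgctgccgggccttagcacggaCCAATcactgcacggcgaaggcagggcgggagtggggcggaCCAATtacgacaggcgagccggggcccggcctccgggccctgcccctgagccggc

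The letters CCAAT occurred on either strand in all 5 matched promoters of the 6 called sterol genes (Cyp51, Hmgcs1, Lss, Msmo1 and Mvd; Sqle was not matched). They occurred in 31 of the 62 called genes with a match and in 33.8% of 32851 promoter windows of the same length. TCACNCCAC occurred in 1 of the 5 sterol promoters, in 3 of the 62 and in 1.05% of all windows. These are matches of letters and were not tested against chance.

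Sqle, which encodes squalene epoxidase, a rate-limiting enzyme of the sterol branch, had a signal of 855 to 3375 with corn oil (median 1616) and of 253 to 1074 with air (median 426). All but 1 of the 10 corn oil mice were above the highest air mouse, which was in ACO3. The difference was 1.88 ± 0.21 (log2, SE), a 3.69-fold rise with a limma adjusted p of 1.19e-05.

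For Hmgcs1, the cytosolic HMG-CoA synthase that supplies the pathway, signals were 4523 to 13207 with corn oil (median 9579) and 1803 to 6045 with air (median 3829). The ranges overlapped, with 8 of the 10 corn oil mice above every air mouse. It rose by 1.20 ± 0.20 (log2, SE; adjusted p 0.0022), and 4 of its 5 probe sets were called in the same direction. Its call was lost with the RNA integrity number as a covariate.

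Cyp51, the lanosterol demethylase, had signals of 1384 to 2937 with corn oil and 731 to 1696 with air, and it rose by 0.93 ± 0.14 (adjusted p 0.000647). Msmo1, which removes methyl groups from sterol intermediates, rose by 0.97 ± 0.19 (0.0113). Lss, the lanosterol synthase that closes the sterol rings, rose by 0.71 ± 0.12 (0.00295), and its signal was above the highest air mouse in 9 of 10 corn oil mice. Its other probe sets, which were dimmer, were not called, at 0.43 ± 0.16 (0.25) and 0.36 ± 0.16 (0.353). Mvd, the mevalonate decarboxylase, rose by 0.61 ± 0.15 (0.0487), which is near the threshold. Without CCO6 the calls of Msmo1, Lss and Mvd were lost, without ACO4 or ACO5 those of Msmo1 and Mvd, and without ACO3 that of Mvd.

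Several other members had differences of like size that did not pass. Idi1, the isopentenyl isomerase, had a difference of 0.97 ± 0.26 (adjusted p 0.0743), Fdps, the farnesyl diphosphate synthase, 0.76 ± 0.19 (0.0659), and Fdft1, the squalene synthase, 0.61 ± 0.15 (0.0548). Hsd17b7 passed on p (0.0384) with a difference of 0.57 ± 0.13, which is under 1.5-fold. At the other end, Ebp, Sc5d, Insig1 and Mvk had differences between -0.14 and 0.14. The regulator itself, Srebf2, had a difference of 0.25 ± 0.12 (0.406). In all, 6 members were called in the main fit, 3 with the RNA integrity number as a covariate, 3 without CCO6 and 10 without CCO5. Over all 18193 genes the calls in these settings were 74, 65, 58 and 237.

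Other genes of cholesterol handling were also measured. Among 10 genes of cholesterol efflux and the sterol receptor LXR, 1 rose and none fell, with a list median of 0.11. That gene was Pltp, the phospholipid transfer protein, with signals of 3473 to 8428 with corn oil and 1890 to 3715 with air. All but 1 of the corn oil mice were above the air range, and the rise was 1.26 ± 0.14 (adjusted p 1.09e-05). Abca1 and Abcg1, the cholesterol exporters, had differences of 0.01 ± 0.17 and 0.11 ± 0.10. Cyp7a1, the rate-limiting enzyme of bile acid synthesis, had a difference of -0.09 ± 0.37. Of 16 genes of bile acid synthesis and its receptor FXR 0 were called, against 0.407% of all genes.

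The second group of higher genes belonged to fatty acid use. Of 25 measured members of a list of 28 genes of PPARalpha and fatty acid oxidation, 4 rose (Pdk4, Fgf21, Acot3 and Angptl4) and none fell, with a list median of 0.23. Fgf21 is also a member of a list of endoplasmic reticulum and amino acid stress. There it was the only one of 20 genes called, the list median was 0.07 and the lowest member was Trib3 at -0.79. The promoters of Pdk4 (GRCm38.p6, chr6:5496279-5496528, minus strand) and Fgf21 (chr7:45615491-45615740, minus strand), whose signals separated the vehicles in every mouse, are given as 250 bases before the RefSeq start. Capitals mark CCAAT on either strand in Pdk4 and the E-box CACGTG in Fgf21.
Pdk4: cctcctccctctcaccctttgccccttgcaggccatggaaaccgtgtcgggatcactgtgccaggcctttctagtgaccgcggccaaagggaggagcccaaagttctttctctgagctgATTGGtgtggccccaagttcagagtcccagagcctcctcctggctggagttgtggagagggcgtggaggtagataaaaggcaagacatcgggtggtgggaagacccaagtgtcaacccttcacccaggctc
Fgf21: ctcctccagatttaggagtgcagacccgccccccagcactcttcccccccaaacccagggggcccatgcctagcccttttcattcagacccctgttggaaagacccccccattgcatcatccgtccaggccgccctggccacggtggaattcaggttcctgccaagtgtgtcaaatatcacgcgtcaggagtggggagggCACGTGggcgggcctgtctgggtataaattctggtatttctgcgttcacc

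CACGTG occurred in 8 of the 62 matched called genes and in 6.02% of all windows. A perfect direct repeat of the receptor half-site with 1 base between (the DR1 element, which PPARalpha binds in looser forms) occurred in 0 of the 62 and in 0.0335% of all windows, and nothing is drawn from its absence.

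Pdk4, the pyruvate dehydrogenase kinase, had the lowest p of all genes. Its signals in CCO5 were 1943, 2584, 4167, 7196 and 3369 and in CCO6 2010, 1798, 2668, 4773 and 3188, against 348 to 908 in the 15 air mice (median 679). Every corn oil mouse was above every air mouse, and the rise was 2.23 ± 0.19 (log2, SE), or 4.69-fold (adjusted p 2.28e-07).

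Fgf21, a hormone secreted by liver in fasting and on some diets, had signals of 1939, 467, 1501, 677 and 444 in CCO5 and of 1230, 701, 1080, 1005 and 1513 in CCO6. The air mice had 75.0 to 293 (median 207). The vehicles did not overlap, the values within CCO5 were spread more widely than those in CCO6, and the rise was 2.32 ± 0.26, or 5.00-fold (adjusted p 1.19e-05).

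Acot3, a peroxisomal acyl-CoA thioesterase, rose by 1.16 ± 0.22 (adjusted p 0.0094), with 7 of 10 corn oil mice above the air range, and lost its call without CCO6 or ACO4. Angptl4, a secreted inhibitor of lipoprotein lipase, rose by 0.77 ± 0.17 (0.0289), with signals of 6313 to 13055 against 2950 to 8471, and it lost its call without any 1 of the sets CCO6, ACO3, ACO4 and ACO5. Of the other members Ehhadh, the peroxisomal bifunctional enzyme, passed on p (0.0264) at a difference of 0.41 ± 0.09. Acot1 and Acot2 had differences of 0.81 ± 0.23 and 0.64 ± 0.16 that did not pass (adjusted p 0.111 and 0.0539), and the receptor gene Ppara had 0.53 ± 0.18 (0.199).

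Over the whole list 20 of the 25 members had higher group means with corn oil, as did 10572 of all 18193 genes. In all 6 pairs of sets 15 members were higher, against 16.8% of all genes. Cpt1a, which admits fatty acids to the mitochondrion, had signals of 5818 to 9214 with corn oil and 4637 to 7370 with air, a difference of 0.31 ± 0.09 (adjusted p 0.136). The 5 members with lower means were Hadha, Hadhb, Acadvl, Fabp1 and Cyp4a14, the last a strongly PPARalpha-dependent cytochrome P450 of rodents, with differences from -0.04 (Hadha) to -0.0027 (Hadhb). All 5 were measured at high signal.

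Slc25a30, Mfsd2a, G0s2 and Igfbp1 were among the largest rises or the called members of other lists. Slc25a30, a mitochondrial carrier, had signals of 3148 to 8028 with corn oil and 807 to 2672 with air, without overlap, and rose by 1.66 ± 0.22 (adjusted p 9.63e-05). Mfsd2a, a transporter of lysophospholipids, rose by 1.46 ± 0.20 (0.000153), with 9 of 10 corn oil mice above the air range. G0s2, an inhibitor of the triglyceride lipase ATGL, rose by 1.32 ± 0.24 (0.00548), the only one of 17 lipid droplet and fat storage genes to be called, and lost its call without ACO4. Igfbp1, a fasting-induced binding protein of insulin-like growth factors, rose by 1.01 ± 0.17 (0.0022), the only one of 15 gluconeogenesis and fasting genes.

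Enzymes of glucose output were not called. G6pc, glucose 6-phosphatase, had signals of 18969 to 26073 with corn oil and 10530 to 21524 with air, with 8 of 10 corn oil mice above the air range. It passed on p (0.0165) with a difference of 0.50 ± 0.10, which is 1.42-fold and under the threshold. Pck1, the gluconeogenic carboxykinase, had 0.03 ± 0.09 (0.919). Among 14 glucocorticoid targets, 2 rose, Pdk4 and Dusp1, a phosphatase of stress kinases, at 0.71 ± 0.17 (0.0478), and the list median was 0.19. The call of Dusp1 was lost without CCO6, ACO4 or ACO5.

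Among genes whose level in mouse liver depends on sex, most of those known to be higher in females had higher means with corn oil. Of 14 measured female-biased genes of a list of 20, 5 rose (Sult2a2, Cyp3a16, Hao2, Acot3 and Sult3a1) and none fell. The list median was 0.61, against 0.04 over all genes, of which 0.330% were called higher. Group means of 12 of the 14 were higher with corn oil, as were those of 10572 of all 18193 genes. Acot3 is also a member of the fatty acid list. Of 16 measured male-biased genes, none rose and 1 fell, Cyp2d9, with a list median of -0.31. All mice were female. With the RNA integrity number as a covariate 3 of the 14 female-biased genes were called, where 65 genes were called in all.

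Sult2a2, a hydroxysteroid sulfotransferase, had the largest rise of all called genes. Its signals were 3003, 7329, 8935, 11023 and 5685 in CCO5 and 3336, 5136, 6037, 1377 and 1202 in CCO6, against 81.5 to 1038 with air (median 414). The vehicles did not overlap, though 2 mice of CCO6 lay just above the highest air mouse. The rise was 3.58 ± 0.43, or 12.0-fold (adjusted p 3.1e-05). Its family has near-identical copies, so the signal may hold RNA of a relative.

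Cyp3a16, a female-biased cytochrome P450 of young mice, had signals of 759 to 2062 with corn oil (median 1552) and 32.8 to 1211 with air (median 225). The ranges overlapped and the air mice varied widely, with an SD of 1.31 (log2) against 0.54 with corn oil. The rise was 2.84 ± 0.42, or 7.17-fold (0.00054), with the same caution about near-identical Cyp3a copies. Hao2, a peroxisomal hydroxyacid oxidase, rose by 1.45 ± 0.22 (0.000689) and Sult3a1, a sulfotransferase, by 0.80 ± 0.18 (0.0326). The call of Sult3a1 was lost without any 1 of CCO5, ACO3, ACO4 and ACO5.

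Other female-biased genes had differences that did not pass, such as Slc22a27 with 0.91 ± 0.26 (adjusted p 0.108) and Cyp3a44 with 0.78 ± 0.19 (0.0551). Cyp2b9, Cux2 and Fmo2 had differences of -0.02 ± 0.08, -0.16 ± 0.14 and 0.06 ± 0.21. On the male side Cyp2d9, a testosterone 16alpha-hydroxylase, had signals of 1135 to 4502 with corn oil and 2353 to 13124 with air and fell by 1.00 ± 0.22 (0.0291), a call that was lost without CCO5, ACO3 or ACO5. Cyp4a12a had a difference of -1.17 ± 0.30 (0.0711) at signals of 3.93 to 54.7 against 11.5 to 204, and Serpina12 went the other way at 0.94 ± 0.23 (0.0567). The major urinary protein gene Mup3 had -0.03 ± 0.18.

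**Figure D2:**
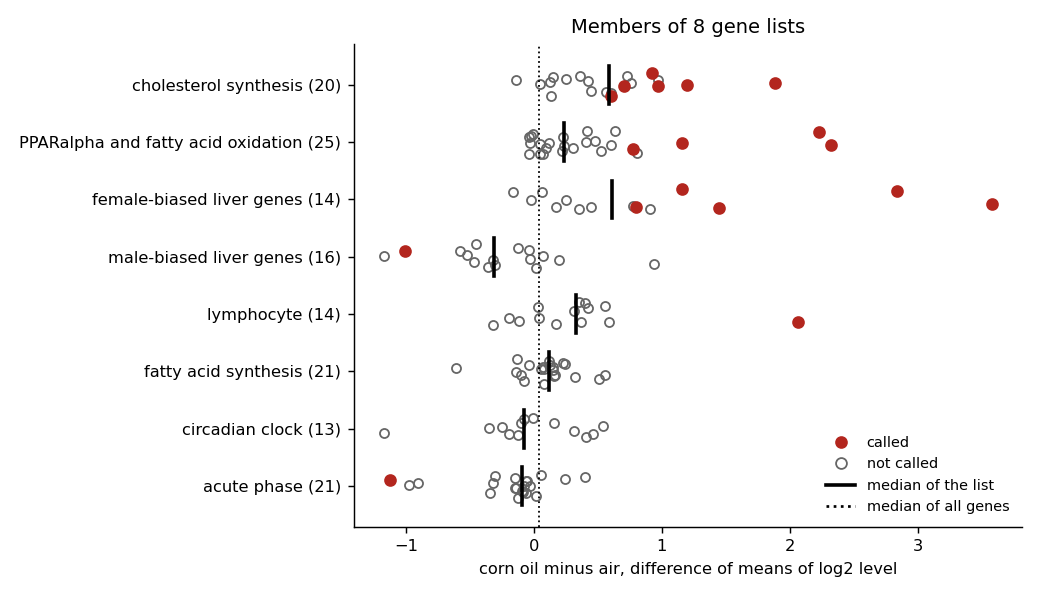
Corn oil minus air difference of mean log2 level (horizontal axis) for the measured members of 8 gene lists, with the number of members in brackets. Filled red points are called genes, open points are not called, black bars are list medians and the dotted line is the median of all genes (0.04). Cholesterol synthesis and the female-biased genes lie mostly to the right, and the male-biased genes mostly to the left.

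Genes of immune cells were measured in the same tissue. Ighm, the constant region of the IgM heavy chain and a marker of B cells and plasma cells, had signals of 388 to 1196 with corn oil (median 664) and 17.0 to 502 with air (median 231). It rose by 2.07 ± 0.45 (adjusted p 0.0264), with 7 of 10 corn oil mice above the air range, and lost its call without CCO6 and without ACO3. Its 11 probe sets disagreed. A second one was also called at 0.83 ± 0.17, and one at a mean signal of 332 had a difference of -0.08 ± 0.11. In bulk tissue, fewer cells of a type and less RNA per cell cannot be told apart.

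Ighm was the only one of 14 measured lymphocyte markers to pass, and the list median was 0.33. The summed signal of the list was 1410 to 2024 with corn oil and 757 to 1300 with air, without overlap. Without Ighm the other 13 summed to 824 to 1210 (median 1004) and 714 to 964 (median 849), and the ranges overlapped. The B cell markers Cd79a, Cd79b and Ms4a1 had differences of 0.42 ± 0.31, -0.12 ± 0.16 and 0.03 ± 0.27. The T cell markers went both ways, with 0.36 ± 0.24 for Cd3e and -0.32 for Cd3g, the lowest of the list. Group means of 11 of the 14 members were higher with corn oil and those of 3 were lower. No member had a mean signal under the pseudocount. Ms4a4b, a membrane protein of mouse T cells, was called at 1.27 ± 0.30 (0.0407) at low signals of 15.5 to 162 against 3.61 to 91.6, and lost its call without CCO5, ACO4 or ACO5. The part of lymphoid cells in these differences was not tested.

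Markers of other cells and of neighbouring tissues gave 1 call, where 0.407% of all genes were called. Among 15 Kupffer cell and macrophage, 10 neutrophil, 14 endothelial, 14 stellate cell and fibroblast, 9 bile duct, 6 erythroid, 10 pancreas and 7 adipose genes none was called. Lgals4, a galectin of gut lining, was the only one of 10 intestine genes, with signals of 236 to 609 with corn oil and 94.0 to 246 with air and a rise of 0.93 ± 0.17 (0.00494). The summed signal of the Kupffer list was 21980 to 38700 with corn oil and 20860 to 30890 with air.

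The 14 genes that were lower with corn oil included 1 male-biased gene and 1 acute phase gene, and the other 12 were in no list. Mmd2, a member of the progestin and adipoQ receptor family, had signals of 308 to 656 with corn oil (median 467) and 652 to 1785 with air (median 1206). All but 1 of the corn oil mice were below every air mouse, the exception (656) lying just above the lowest air mouse (652), and it fell by 1.28 ± 0.17 (adjusted p 9.63e-05). A second probe set of Mmd2 was also called.

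Ptgds, the synthase of prostaglandin D2, had signals of 568, 583, 565, 687 and 644 in CCO5 and 537, 562, 649, 758 and 511 in CCO6, against 872 to 1485 with air. The vehicles did not overlap and the spread was small. It fell by 0.87 ± 0.10 (2.24e-05), as did its second probe set. Ggt6, of the gamma-glutamyltransferase family, had 670 to 1100 against 1171 to 2335, again without overlap, and fell by 0.91 ± 0.13 (0.000217).

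Slc13a2, a transporter of citrate and other dicarboxylates, fell by 0.98 ± 0.18 (0.00494), with 5 of 10 corn oil mice below the air range. Pdia6, a disulfide isomerase of the endoplasmic reticulum, fell by 0.66 ± 0.11 (0.00214) at signals of 2962 to 5698 against 5068 to 7780, and lost its call without CCO6. Etfbkmt, a methyltransferase that modifies electron transfer flavoprotein, fell by 0.84 ± 0.15 (0.00518), with 9 of 10 corn oil mice below the air range. Atp4a, the catalytic subunit of the proton pump known from stomach, fell by 0.71 ± 0.15 (0.0189) at low signals of 95.9 to 236 against 174 to 382, and kept its call only when CCO6 was the set left out.

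Orm2, an acute phase glycoprotein, fell by 1.13 ± 0.26 (0.0384), with signals of 513 to 1507 against 1133 to 9318. The highest value was that of 1 mouse of ACO3, and the call was lost without CCO6, ACO3, ACO4 or ACO5. Of 21 acute phase genes it was the only one called, with a list median of -0.09, and the air range of Saa1, serum amyloid A, reached 64762 against 6770 with corn oil at a difference that did not pass (-0.91 ± 0.43, adjusted p 0.392). The other 6 falls (Mfsd4b5, Tspyl4, Rab20, Spsb4, Mtmr7 and Cyp2d9) fell by 0.60 (Mtmr7) to 0.76 on the log2 scale, apart from Cyp2d9, whose fall is given above.

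Most of the remaining rises were in no list. Tafa2, a secreted chemokine-like protein, rose by 1.60 ± 0.28 (0.00426) at low signals of 47.8 to 218 against 2.85 to 85.7, and lost its call without CCO5. Prss51, a serine protease gene, rose by 1.25 ± 0.29 (0.0393) and lost its call without any 1 of CCO5, CCO6, ACO3 and ACO4. Hamp2, a liver hepcidin, rose by 0.63 ± 0.14 (0.0264), at signals of 20022 to 57277 against 15822 to 34586, and kept its call only when CCO6 was the set left out. It was the only one of 11 metal response genes, and the metallothionein Mt1 had 1.14 ± 0.33 (0.110).

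The following called genes were chosen after their values were seen and stand for no tested group. Aacs, which activates acetoacetate for lipid synthesis, rose by 1.11 ± 0.20, Lipg, an endothelial lipase, by 1.05 ± 0.21, and Nceh1, a cholesterol ester hydrolase, by 0.76 ± 0.15. Pex11a, a PPARalpha-dependent factor of peroxisome division in mouse, rose by 0.88 ± 0.13, and Txnip, a thioredoxin-binding regulator of glucose uptake, by 0.98 ± 0.15. Over the 60 rises the differences ran from 0.61 (Mvd) to 3.58 (Sult2a2).

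Many processes that liver studies follow gave no call, where 0.407% of all genes were called. A count of 0 in a short list is near that share and sets no list apart. None of 13 clock genes was called, and Arntl, Clock, Per1, Per2 and Per3 had differences from -0.19 (Per2) to -0.01 (Clock). Nr1d1, a clock repressor, had the widest difference, -1.17 ± 0.42 (adjusted p 0.222), with signals of 28.4 to 811 against 266 to 1230.

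None of 21 genes of fatty acid synthesis was called (list median 0.12). Srebf1, its main regulator, had -0.61 ± 0.19 (0.146), Fasn 0.23 ± 0.18 and Scd1 -0.14 ± 0.13. Counts were also 0 for 20 targets of the xenobiotic receptors CAR and PXR, 24 of NRF2, 7 of the aryl hydrocarbon receptor, 13 of p53, 22 interferon, 13 heat shock, 14 hypoxia and 20 cell cycle genes. Some members had large differences without a call, such as Cdkn1a of the p53 list at 1.01 and Gsta2 of the NRF2 list at -1.06. Cyp2b10, the standard target of CAR, had -0.37 ± 0.21 and Cyp1a2 -0.02 ± 0.10.

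Sets of the same vehicle were compared in the same way. Between the corn oil sets no gene was called in limma (0%), although 1993 genes had an unadjusted p under 0.05. Between air sets no gene was called for ACO4 against ACO3 (0%, 827 genes at an unadjusted p under 0.05) or ACO5 against ACO3 (0%, 884), and 8 genes (0.0440%, 1041) for ACO5 against ACO4. Each pair of a corn oil and an air set gave 3 (0.0165%, CCO5 against ACO3) to 44 genes (0.242%, CCO6 against ACO4). The other pairs gave 16 (0.0879%) and 20 (0.110%) for CCO5 against ACO4 and ACO5, and 12 (0.0660%) and 28 (0.154%) for CCO6 against ACO3 and ACO5. The unlike pairs had 1349 to 2476 genes at an unadjusted p under 0.05, and the corn oil sets, with 1993, differed from each other in more genes by that measure than 4 of the 6 unlike pairs. The counts of calls also overlapped, with 8 genes in a pair of air sets and 3 in a pair of unlike sets.

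**Figure D3:**
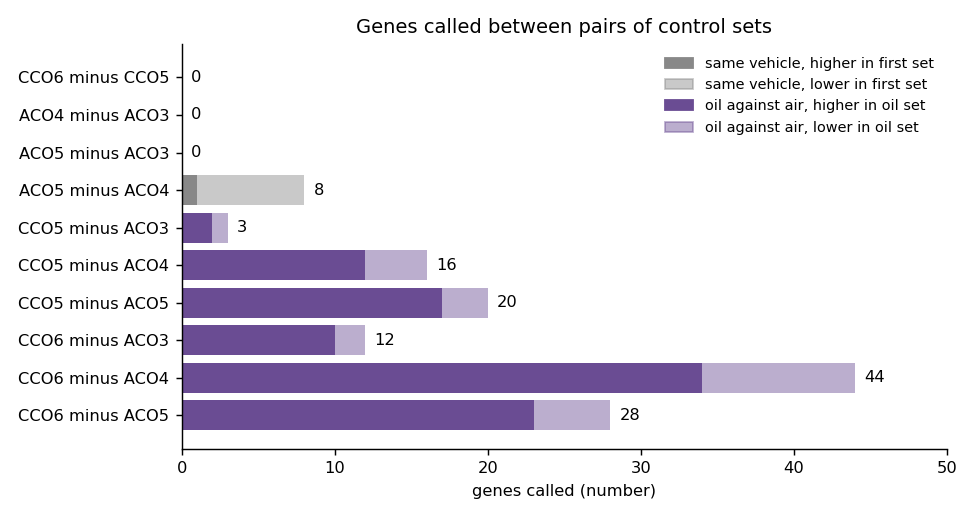
Number of genes called in limma between each pair of control sets of 5 mice. Grey bars are pairs of the same vehicle, purple bars corn oil against air, with dark parts higher and light parts lower in the set named first. Same-vehicle pairs gave 0, 0, 0 and 8 genes and unlike pairs 3 to 44.

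The same vehicles could be compared in mice that the choice of genes had not used. The lowest dosed groups of the run were given 1,4-dichlorobenzene (100 mg/kg) or 1,2,3-trichloropropane (2 mg/kg) in corn oil by gavage, or methylene chloride (100 ppm), naphthalene (0.5 ppm) or propylene glycol mono-t-butyl ether (25 ppm) in chamber air, with 4 mice each. The chemicals differ between the vehicles and cannot be told apart from them. RNA integrity numbers, where given, were also lower in every corn oil mouse of these groups than in every air mouse. The part of RNA integrity in the differences was not tested. Of the 74 genes, 66 had the direction seen in the controls, against 51.9% of all genes. Of these 45 also had an unadjusted p under 0.05 (8.56% of all genes), and 49 kept the direction in all 6 pairs of groups (15.6%). Called over all genes were 13 of the 74, where 50 genes (0.275%) were called in all. The count over all genes changed with the groups used. It fell to 2 without 1,4-dichlorobenzene, 5 without 1,2,3-trichloropropane and 5 without methylene chloride. It rose to 122 without naphthalene and 121 without propylene glycol mono-t-butyl ether, and to 397 with group means as fixed terms. Leaving out either corn oil group left a single group of that vehicle.

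Pdk4 again separated the vehicles, with group means of 10.79 and 11.96 (log2 level) with corn oil and 9.70, 8.95 and 9.10 with air, a difference of 2.12 ± 0.31 (limma adjusted p 0.00525). Sult2a2 had 11.23 and 11.54 against 7.87, 7.79 and 8.28, a difference of 3.41 ± 0.60 (0.0128), and Cyp3a16 differed by 3.92 ± 0.57 (0.00525). In each case both oil groups were above all 3 air groups.

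The sterol genes Sqle, Hmgcs1 and Cyp51 differed by 1.48 ± 0.25 (0.00823), 1.17 ± 0.17 (0.00525) and 0.91 ± 0.14 (0.00525), and Fgf21 by 1.96 ± 0.42 (0.0458). Mmd2 had group means of 8.97 and 9.30 with corn oil and 10.51, 10.97 and 10.00 with air, a difference of -1.36 ± 0.21 (0.00556). Ptgds and Pdia6 were also lower with corn oil, by -0.96 ± 0.20 (0.0385) and -0.62 ± 0.13 (0.0376).

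Other genes did not repeat. Lss and Mvd had differences of 0.13 ± 0.25 and 0.21 ± 0.28, and the directions of Prss51 (-0.45 ± 0.51) and of 7 further rises, among them Evc2 and Mtmr11, were opposite. Mtmr11 was one of the genes without overlap in the controls. Every one of the 14 falls kept its direction. Mt1 and Mt2, the metallothioneins, differed by 2.33 ± 0.34 (0.00525) and 2.38 ± 0.49 (0.0343) in the dosed groups, although neither was called in the controls.

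**Figure D4:**
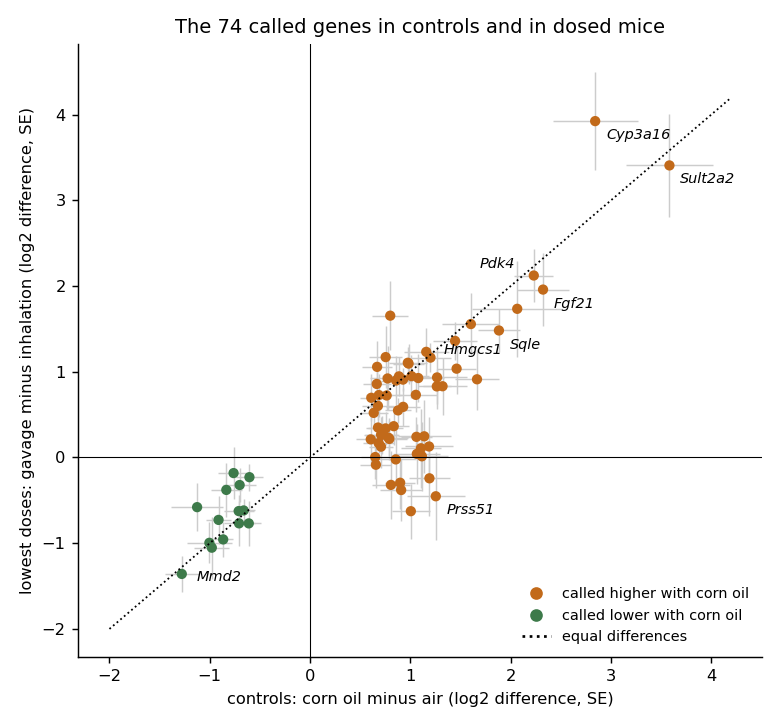
Corn oil minus air difference (log2) of the 74 called genes in the controls (horizontal axis, 25 mice) and in the lowest dosed groups (vertical axis, 20 mice), with SE bars. Orange points were called higher and green points lower in the controls, and the dotted line marks equal differences. Of the 74 points 66 lie in the quadrants of equal sign, and 8 rises lie below 0.

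Over all doses the run held 10 gavage groups and 17 inhalation groups, the lowest dosed groups above among them. All gavage groups were doses of 1,4-dichlorobenzene or 1,2,3-trichloropropane. Most inhalation groups were doses of methylene chloride, naphthalene or propylene glycol mono-t-butyl ether. For 8 of the 60 rises every gavage group mean was above every inhalation group mean (0.165% of all genes), and for 2 of the 14 falls every gavage mean was below (0.0934%). The 8 were Pdk4, Sqle, Hmgcs1, Cyp51, Pltp, Ighm, Enc1 and Rad51b, and the 2 were Mmd2 and Pdia6. Enc1 and Rad51b were named after their values were seen. Pdk4 means were 9.84 to 11.96 with gavage and 7.79 to 9.70 with inhalation, and Mmd2 means were 8.58 to 9.42 and 9.62 to 10.97. Sult2a2 means overlapped widely, at 7.51 to 12.9 with gavage and 5.97 to 12.33 with inhalation.

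**Figure D5:**
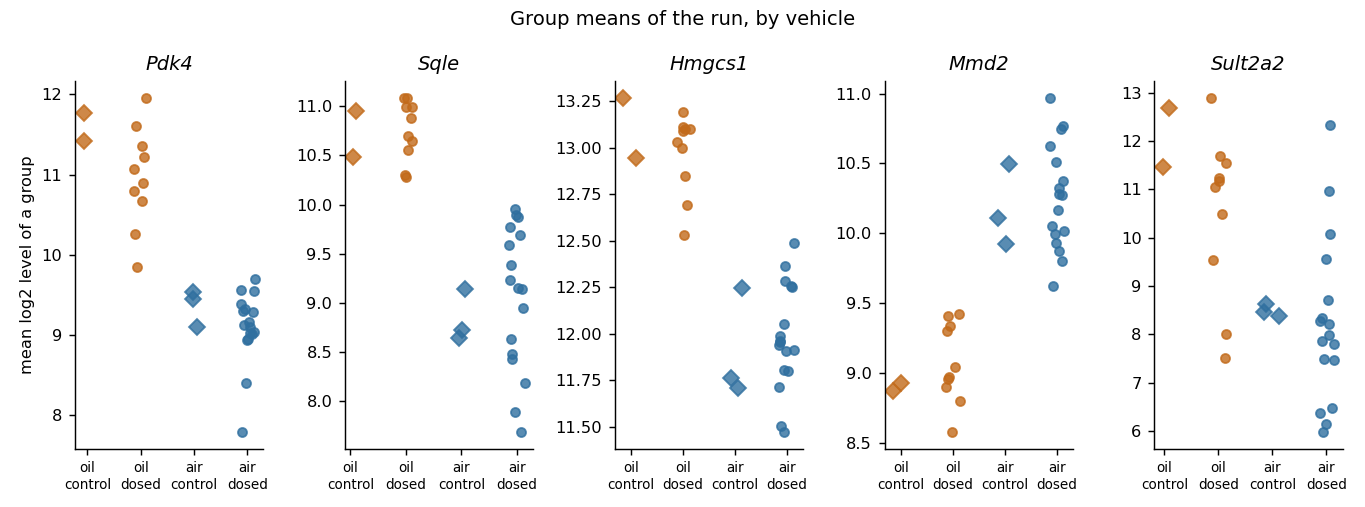
Mean log2 level of 5 genes in every control set (diamonds) and dosed group (circles) of the run, by vehicle, corn oil in orange and air in blue. Oil groups lie above all air groups for Pdk4, Sqle and Hmgcs1 and below them for Mmd2, whereas Sult2a2 overlaps among dosed groups.

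A second run held a smaller pair of control sets, corn oil CCO4 and air ACO1, with 4 mice each. There ACO1 stood apart, with a median SD per gene of 0.546 (log2) and a lowest correlation between its arrays of 0.901, against 0.277 and 0.966 in CCO4. In the limma fit on all 36 arrays of that run 5194 genes (28.5%) were called between the vehicles, but on the 8 arrays alone none was (5902 genes at an unadjusted p under 0.05). Of the 74 genes 43 had the same direction, against 50.0% of all genes, and 20 also had an unadjusted p under 0.05, against 21.4%. The share of the 74 was thus near that of all genes in both measures.

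The limma fit on all arrays of the second run called 15 of the 74 genes in the same direction. These were 9 rises and 6 falls. In the same fit 28.5% of all genes were called in either direction. Calls of single genes there thus do not set the 74 apart. The values that follow are from that fit, and the genes that passed were among the 15. Pdk4, Sqle, Hmgcs1 and Cyp51 were higher with corn oil in the second run by 1.38 ± 0.51 (adjusted p 0.0363), 1.63 ± 0.39 (0.00196), 1.78 ± 0.32 (0.00033) and 1.80 ± 0.29 (0.000206), and Ighm by 2.57 ± 0.68 (0.00471). Mmd2, Ptgds, Ggt6, Slc13a2 and Cyp2d9 were lower, by -1.58 ± 0.28 (0.000269), -1.40 ± 0.50 (0.0323), -1.53 ± 0.38 (0.0031), -1.43 ± 0.36 (0.00292) and -1.27 ± 0.37 (0.00949). Fgf21 had 1.12 ± 0.50 (0.0879), in the same direction.

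Sult2a2 went the other way. Its mean log2 level was 10.04 (9.44 to 10.32) in CCO4 and 11.57 (8.94 to 14.09) in ACO1, a difference of -1.53 ± 1.11 (0.328). The difference between the runs was 5.11 ± 0.93 (0.000509). Mfsd2a and Pltp had -0.59 ± 0.43 and -0.76 ± 0.42 in the second run, also unlike the first, with run differences of 2.05 and 2.03 (adjusted p 0.001 and 0.000403). In that run 2323 of all 18193 genes were called lower with corn oil, and of the 60 rises 4 were. These were Angptl4 at -0.81 ± 0.27 (0.0209), Evc2 at -1.28 ± 0.47 (0.0382), and Pdzk1ip1 and Slc45a3, the last 3 named after their values were seen. Of the 14 falls, 5 were higher with corn oil in the second run, as were 8483 of all 18193 genes. Among the 5 were Etfbkmt at 1.26 ± 0.51 (0.0578) and Tspyl4 at 0.85 ± 0.34 (0.0544), which did not pass. Tested over all genes, the run difference was called for 4827 genes (26.5%), 30 of the 74 among them.

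Controls given no oil were on other arrays of the series. The chow set FCO1, in the second run, had mean levels of 11.18 for Pdk4, 10.25 for Sqle and 9.42 for Mmd2, where CCO4 had 11.16, 10.31 and 9.07 and ACO1 9.78, 8.68 and 10.65. The 4 mice of FCO1 varied widely in Pdk4, from 9.97 to 12.57. Water gavage sets of another run (WCO1 and CCO3, both labelled distilled water) had 10.27 and 10.40 for Pdk4, where the air sets compared here had 9.11 to 9.54 and the corn oil sets 11.42 and 11.77. For Sqle these water sets had 9.955 and 10.24, the air sets 8.64 to 9.14 and the corn oil sets 10.48 and 10.95. For Mmd2 the water sets had 9.32 and 8.68, the air sets 9.93 to 10.49 and the corn oil sets 8.93 and 8.87. Both genes were thus nearer the corn oil sets in the water sets. Other sets had other levels. The chow set FCO2, mostly of the run of the water sets, had 8.93 for Pdk4, 8.67 for Sqle and 8.77 for Mmd2. There Pdk4 and Sqle were as low as in the air sets, and Mmd2 was as low as in the corn oil sets. A corn oil set of a further run (titled CornOil, 3 mice) had 9.06 for Pdk4, 7.90 for Fgf21, 9.90 for Mmd2 and 11.05 for Sqle, the first 3 near the air sets and Sqle near the corn oil sets. Its chow set (RodentChow, 3 mice) had 10.59 for Pdk4, 9.95 for Sqle and 9.62 for Mmd2. Corn oil set CCO2, split between the run of the water sets and yet another run, had 10.44, 10.05 and 8.99. Levels from different runs were not tested against each other, and FCO2 and CCO2 each held arrays of different runs.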

How the data were processed

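Liver RNA of 25 control mice, 1 array each, was compared. The deposited values are probe set signals on a linear intensity scale. GCOS 1.0 is named per the submitters' processing notes, and further steps are not given in the sources used here. All 25 arrays had a trimmed mean (2% cut from either tail) of 500. Of 45101 probe sets, 64 were controls, 34945 had exactly 1 symbol in the platform annotation, and 932 with several symbols were among 10092 not named. RefSeq matched 34741. The brightest probe set stood for each of 18193 genes, 9010 of which had several.

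Analysis was on log2(signal + 17.3), a pseudocount equal to the median array's 20th percentile, which understates folds of dim genes. limma 3.58.1 (R 4.3.3, files read by version 1.17.8 of data.table) was fitted with vehicle as the term and control set as a random block (correlation 0.0113), followed by eBayes. A call required p under 0.05 after Benjamini-Hochberg adjustment across the 18193 genes, a fold of at least 1.5 and the same direction in all 6 pairs of sets. Tests were two-sided, ± is the SE, and the method was tested on simulated data. The lowest dosed groups used the same model with group as the block, and the second run 1 mean per group over 36 arrays.

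Genes named were the 15 largest rises, the 15 largest falls (14 existed), up to 3 called members of each list by lowest adjusted p, and 30 genes fixed by name (27 measured). List members with values that did not pass are given to describe their list. The members and the 36 lists (551 genes, 52 not measured) were chosen with earlier results of these data known. Alternatives were other treatments of the set, quantile normalisation, a filter on dim genes, other pseudocounts and thresholds, RNA integrity as a covariate, and leaving out each array and set. Promoters are from RefSeq. Summaries used pandas 2.3.3 and numpy 2.4.6 under Python 3.11.15, and figures matplotlib 3.10.9.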

Additional observations from a re-analysis of the deposited data

Results flagged for a closer look

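In 13 of 300 sets of values of the named genes (4.33%, where chance gives about 5%) 1 mouse lay far from the other mice of its control set. Replicate numbers here follow the order of the samples and only name the mice. Among called genes, and on the log2 scale, Ms4a4b was at 5.04 in CCO6 replicate 4 (nearest mouse 6.55), Pltp at 11.03 in ACO3 replicate 4 (11.28) and Hmgcs1 at 10.83 in ACO5 replicate 5 (11.84). Orm2 was at 13.19 in ACO3 replicate 3 (11.07), Ptgds at 9.8 in ACO4 replicate 2 (10.42), Etfbkmt at 8.17 in CCO5 replicate 4 (8.86) and Mfsd4b5 at 6.9 in ACO3 replicate 5 (7.8). Among genes not called, Arntl was at 9.8 in CCO5 replicate 4 (10.15) and at 9.61 in ACO5 replicate 5 (10.12), Npas2 at 8.91 in ACO5 replicate 4 (8.36) and Fasn at 13.57 in CCO6 replicate 2 (12.97). Scd1 was at 15.1 in ACO4 replicate 4 (15.85) and Cyp3a11 at 15.28 in ACO3 replicate 5 (15.75).

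The difference between corn oil and air itself differed between the runs for 21 of 60 named genes, 15 of them called, by limma's test of the difference (this run minus the second, log2). Among rises it was 5.11 for Sult2a2, 1.41 for Tafa2, 2.05 for Mfsd2a, 2.03 for Pltp, 2.36 for Prss51, 1.52 for Igfbp1, 1.09 for Hamp2, 1.03 for Lgals4, 1.58 for Angptl4 and -0.87 for Cyp51. Among falls it was -2.09 for Etfbkmt, -0.83 for Mfsd4b5, -1.56 for Tspyl4, -1.05 for Pdia6 and -1.01 for Mtmr7. Among genes not called it was -1.17 for Arntl, -1.42 for Clock, -1.0 for Per2, 0.77 for G6pc, 2.95 for Mt1 and 3.13 for Mt2. The air set of the second run stood apart in its spread, and its part in these differences was not tested.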

How the results depend on the processing

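No called gene that the text names by its rule reversed under the alternatives that kept 1 probe set per gene. Some other probe sets of called genes had the opposite sign without being called, such as 1 of Pdia6 at 0.14 ± 0.17 and 1 of Ighm at -0.08 ± 0.11. The 74 calls became 0 with the set means as 5 samples, 151 with the variance of all 134 arrays of the run, 125 with no fold threshold and 156 with every probe set. They became 237 without CCO5, 40 without ACO4 and 49 without ACO5, and 51 to 99 without 1 array. Other alternatives stayed within 1.5 times, with 99 for set means as fixed terms, 62 after quantile normalisation, 72 without dim genes, 64 and 75 at pseudocounts of 4.33 and 69.2, 65 with RNA integrity as a covariate, 58 without CCO6 and 51 without ACO3. With all 134 arrays the air sets differed by 16 (ACO5 against ACO3) and 23 genes (ACO5 against ACO4), and CCO5 differed from ACO3, ACO4 and ACO5 by 14, 51 and 73 and CCO6 by 72, 166 and 79. After quantile normalisation ACO5 against ACO3 and CCO6 against ACO3 each gave 6. The second run gave 0 on its 8 arrays alone and 3848 to 6763 without 1 array. The lowest dosed groups gave 397 with group means as fixed terms, 2 without 1,4-dichlorobenzene, 5 without 1,2,3-trichloropropane, 5 without methylene chloride, 122 without naphthalene and 121 without propylene glycol mono-t-butyl ether. The cause of these shifts was not tested. No paired analysis was possible because the sets hold different mice with no shared unit in the labels. Low signals, near the pseudocount, limit Tafa2, Ms4a4b, Gm19461 and Trpv1.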
